A study of Mus musculus with 7 samples.

Results

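Cadherins and protocadherins were followed in C2C12 cells, a mouse skeletal muscle line, after exposure to exosomes from other C2C12 cells. The array carried 94 probes whose gene name is Cdh with a number or begins with Pcdh, for 73 gene names. Of these, 32 probes of 28 genes were well above background on at least 3 arrays of a group and were kept, out of 21589 kept probes among 39429 in all. Recipient cells were incubated for 24 h in serum-free medium with exosomes from donor cells treated with 0.5 mM palmitate (EXO-Palm, 3 arrays) or with BSA, its carrier (EXO-BSA, 4 arrays). The study calls these exosomes EXO-Post Palm and EXO-Post BSA, because they were collected 9 h after the fatty acid had been taken off the donor cells. Both groups therefore received exosomes, and no array of cells without exosomes was analysed here. The labels name the recipient cells myoblasts and the study calls them myotubes, and each array is labelled as a biological replicate. The source label names C2C12 for all 7 arrays, while the cell line label does so for 1 array and counts upward from that name over the others. All were taken as C2C12.

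Classical cadherins are single-pass membrane proteins that bind their own kind on the next cell through calcium-dependent extracellular repeats, and their short cytoplasmic tail holds beta- and p120-catenin, which tie the junction to actin. Myoblasts use N-cadherin (Cdh2), M-cadherin (Cdh15) and cadherin-11 (Cdh11) to adhere, align and fuse into myotubes. Protocadherins share the extracellular repeats but not the catenin-binding tail. The clustered ones are encoded in 3 arrays of neighbouring genes, called alpha, beta and gamma, and are best known for recognition between neurons.

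None of the 32 kept probes passed an adjusted p of 0.05 in limma between EXO-Palm and EXO-BSA, beside 0.533% of all tested probes. The lowest log2 fold changes among members were those of Pcdh21 (−2.70), Cdh11 (−1.71) and the less bright Cdh18 probe (−0.57), and the highest those of Cdh6 (1.20) and Pcdha8 (1.06). Pcdh21 and this Cdh18 probe were kept through their EXO-BSA arrays alone and Cdh6 through its EXO-Palm arrays alone, so the filter itself favoured a difference there. Of the muscle cadherins, Cdh11 and 1 of the 2 Cdh2 probes were lower on every EXO-Palm array than on any EXO-BSA array, and Cdh15 was not. At an unadjusted p under 0.05, 3 of 32 member probes passed (Cdh11, Pcdh21 and Pcdhb17, all lower with EXO-Palm), where 10.0% of all tested probes passed in either direction and 5.19% were lower. The 2 groups did not overlap for 4 of the 32, again all lower with EXO-Palm, beside 11.3% of all tested probes in either direction and 5.87% in this one. The members' shares were 9.38% and 12.5%, near those of all probes in either direction and above those of all probes that were lower. They rest on 3 and 4 probes, Pcdh21 among them in both.

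Signals are given below on the log2 scale relative to the 75th percentile of the same array, so that 0 is the signal of a probe at that percentile and a difference of 1 is a 2-fold change. The arrays differed in brightness. The 75th percentile lay between 549.4 and 1621 intensity units, and 48.3 to 70.3% of probes were well above background. Member probes well above background numbered 37, 51, 32 and 26 of 94 on EXO-BSA replicates 1 to 4, and 57, 32 and 33 on EXO-Palm replicates 1 to 3. EXO-BSA replicate 4 thus had the fewest detected members and EXO-Palm replicate 1 the most. The arrays came from 4 slides. Slide 1 held EXO-BSA replicates 1 and 2 and EXO-Palm replicate 1, slide 3 held EXO-BSA replicate 4 and EXO-Palm replicate 3, and the other two arrays had a slide each. The number of arrays limits the precision, and in a bulk sample fewer cells of a type and less RNA per cell cannot be told apart.

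Of the 12 skeletal muscle markers examined, all were measured and 11 were well above background on all 7 arrays, Myod1, Myog, Acta1 and Ckm among them. The myoblast marker Myf5 was not well above background on any array, while Pax7, Myod1, Id1 and Id3 were on all 7. The endothelial markers Tek, Tie1 and Emcn and the epithelial marker Epcam were not well above background on any array. Other markers of these lists were, with the endothelial Pecam1 and Kdr and the epithelial Krt19 on all 7 arrays. The epithelial Krt8 and Cldn4 were on 5 arrays and Krt18 on 1.

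The probe sequences of 4 members are shown because the measurement of these closely related genes rests on them. Each is given 5′ to 3′ with its mm9 position, and capitals mark the longest run of bases that it shares with any other kept member probe. These runs were 9 bases for Cdh15, 7 for Cdh13 and 10 for Cdh6. The Cdh11 probe is cut after its first 30 bases and is left in lower case. The sequences are those of the array design.
Cdh15, chr8:125391031-125391090, plus strand: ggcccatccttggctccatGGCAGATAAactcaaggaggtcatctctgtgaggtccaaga
Cdh13, chr8:121837969-121838028, plus strand: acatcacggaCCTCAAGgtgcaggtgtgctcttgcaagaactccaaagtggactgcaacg
Cdh6, chr15:12963981-12964040, minus strand: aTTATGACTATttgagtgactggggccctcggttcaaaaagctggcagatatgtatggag
Cdh11, chr8:105157473-105157532, minus strand: tattttagtatacatacaaatatcagtatt

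Across the 32 kept probes, each 60 bases long, the longest run shared with another kept member was 7 to 11 bases, with a median of 8. The Cdh6 run is shared with a Cdh18 probe, and the run of 11 bases is shared by Pcdhb12 and 1 Pcdhga9 probe. The whole Cdh11 probe had 28.3% G and C, the lowest of the kept members, whose median was 43.3%. Exon and UTR annotation on this build was not used here.

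Members were detected less often than the array as a whole, with 34.0% of their probes kept against 54.8% of all probes. Among the kept ones, 25 of 32 (78.1%) were well above background on all 7 arrays, against 80.0% of all kept probes. The muscle cadherins had 4 of 5 probes kept, all 4 on all 7 arrays. Of the other type I cadherins, Cdh1 (E-cadherin), Cdh3 (P-cadherin) and Cdh4 (R-cadherin), none of 5 probes was kept, and the Cdh1 probe was well above background on 2 arrays of each group. Among the other type II cadherins 5 of 14 probes were kept, for Cdh6, Cdh8, Cdh12 and Cdh18, and the endothelial Cdh5 was not well above background on any array. The atypical cadherins had 2 of 5 probes kept (Cdh13 and Cdh26), the non-clustered protocadherins 8 of 26 and the clustered ones 13 of 38. The probe of Cdh29, now named Cdhr4 and placed in none of these classes, was not well above background on any array. Of the 62 probes left out, 32 were below that mark on all 7 arrays, 20 reached it on 1 array of their better group and 10 on 2. Of the kept probes, 5 reached the limit in 1 group only, those of Cdh6 and Pcdhb12 (2 EXO-BSA and 3 EXO-Palm arrays), Cdh12 (3 and 2), Pcdh21 (4 and 1) and 1 of Cdh18 (3 and 1). Just outside it lay Cdh1 (2 and 2) and a Pcdh7 probe (2 and 1), with signals of −4.95 to −4.27 and −4.55 to −3.73.

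Cdh11 encodes cadherin-11, a type II cadherin of mesenchymal cells and myoblasts. Its kept probe read −1.97, −0.55, −1.11 and −1.46 on EXO-BSA replicates 1 to 4 and −2.35, −2.99 and −3.61 on EXO-Palm replicates 1 to 3. All 3 EXO-Palm arrays lay below all 4 EXO-BSA arrays, with the nearest values on slide 1. This was a log2 fold change of −1.71 ± 0.40 (SE), a signal 3.28-fold higher in EXO-BSA, with a 95% interval of −2.61 to −0.81. The adjusted p in limma was 0.148, from an unadjusted p of 0.00206. The exact permutation test gave p = 0.0571 (2-sided), the smallest that 35 splits of 4 and 3 arrays allow. Within slides the difference was −1.09 on slide 1 and −2.15 on slide 3, and it was −1.55 with the slide as a block (adjusted p = 0.339). Only centring each array on its median brought it past the threshold (adjusted p = 0.0444). A second Cdh11 probe lies 0.578 kb away in mm9 and was well above background on 1 EXO-BSA and 2 EXO-Palm arrays, so it was not kept. It read −5.30, −3.21, −6.40 and −4.17 with EXO-BSA and −4.49, −5.41 and −3.82 with EXO-Palm. These values overlapped, and with 4 of 7 arrays not well above background they give no direction to set beside that of the kept probe.

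Cdh2 encodes N-cadherin, the main cadherin of early myoblast contacts, and had 2 kept probes 0.173 kb apart. The brighter read 4.07, 4.16, 4.43 and 4.17 with EXO-BSA and 3.55, 4.05 and 3.58 with EXO-Palm. No EXO-Palm value reached the lowest EXO-BSA value, although EXO-Palm replicate 2 came within 0.02 of it. Its log2 fold change was −0.48 ± 0.22 (SE, adjusted p = 0.509 in limma), with an interval of −0.97 to 0.01. The exact permutation p was again the smallest possible, 0.0571 (2-sided). The difference was −0.56 within slide 1 and −0.59 within slide 3. It shrank to −0.15 with a normexp background correction and to −0.14 on the authors' processed values. The other probe read 3.43, 3.21, 3.39 and 3.66 with EXO-BSA and 3.16, 3.33 and 2.99 with EXO-Palm, which overlapped. Its log2 fold change was −0.26 ± 0.20 (SE, adjusted p = 0.708 in limma).

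Cdh15 encodes M-cadherin, which is found mostly in skeletal muscle. Its probe read 4.33, 4.20, 4.56 and 4.58 with EXO-BSA and 3.90, 4.70 and 4.53 with EXO-Palm. The EXO-Palm values included both the lowest and the highest of all 7 arrays. Between the groups the log2 fold change was −0.04 ± 0.25 (SE), with an interval of −0.61 to 0.52 and an adjusted p in limma of 0.969. Differences of up to about 0.5 in either direction are thus inside the interval. The sign turned when EXO-Palm replicate 1, the lowest array, was left out (0.19) and under quantile normalisation (0.02).

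**Figure D1:**
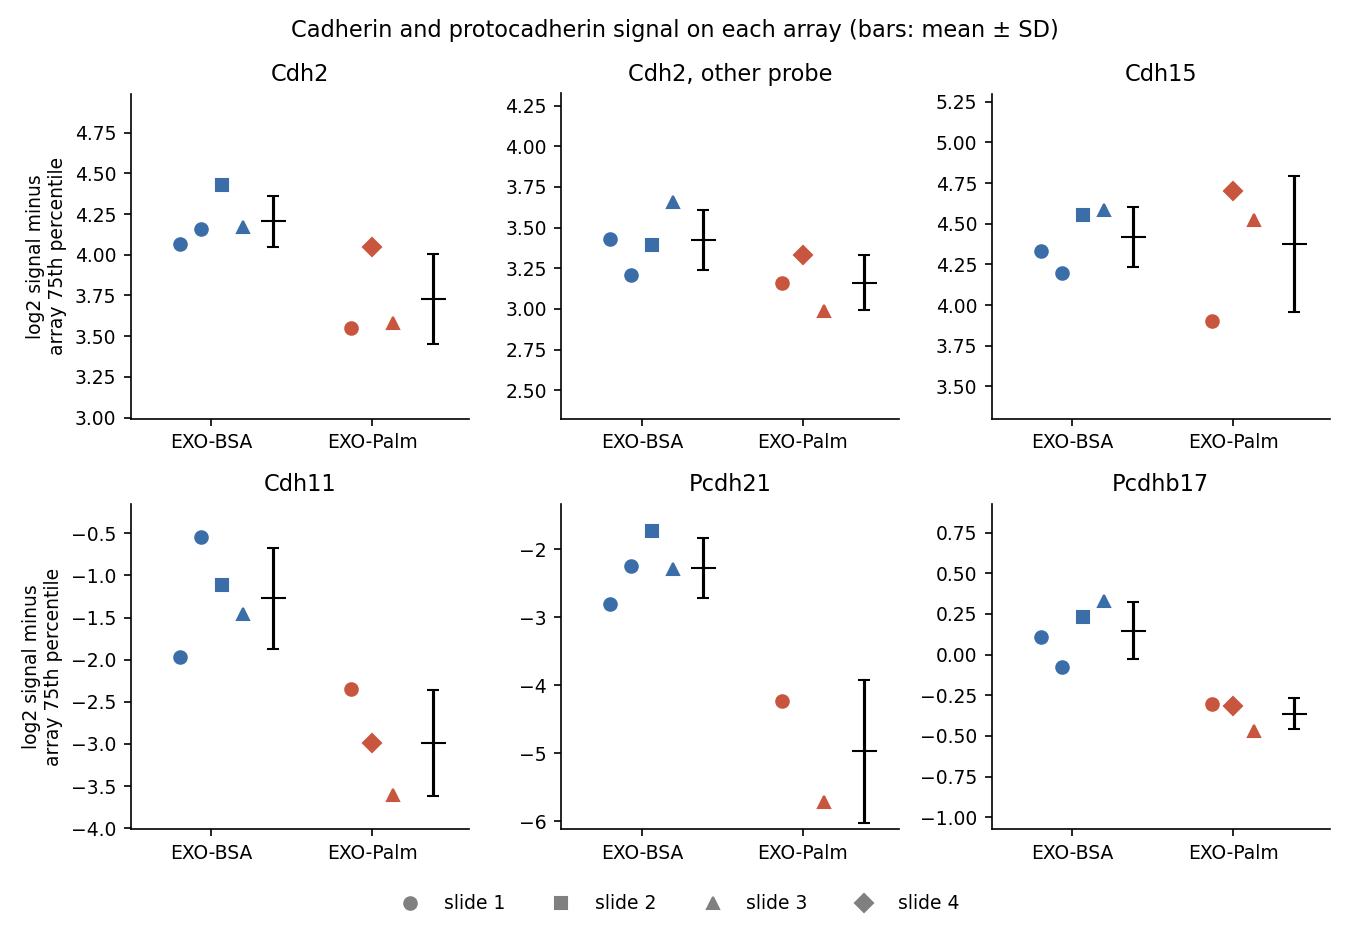
Log2 signal relative to the 75th percentile of the array for 6 kept probes, in a panel each with its own axis. Each point is an array, its shape gives the slide, and the bars show the group mean ± SD. The 3 EXO-Palm arrays lie below all 4 EXO-BSA arrays for Cdh2, Cdh11 and Pcdhb17, the 2 measured EXO-Palm arrays do so for Pcdh21, and the groups overlap for Cdh15 and the other Cdh2 probe.

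With 1 probe per gene, the median log2 fold change of the 3 muscle cadherins was −0.48 and that of the 25 other genes 0.02, a gap of −0.49. All 3 muscle genes had a negative value, against 12 of 25 others. The gap was −0.53, −0.29 and −0.58 when EXO-Palm replicates 1 to 3 were each set against the EXO-BSA mean. It rests on Cdh2, the middle of the 3 genes, and was −0.32 when all kept probes of a gene were averaged, −0.13 on the authors' processed values and −0.11 after normexp. Over all 32 probes the median was −0.11, beside −0.02 over all tested probes, and 59.4% of members had a negative value beside 52.7% of all. The median SE of a member was 0.27, the same to 2 decimals as that of all probes.

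**Figure D2:**
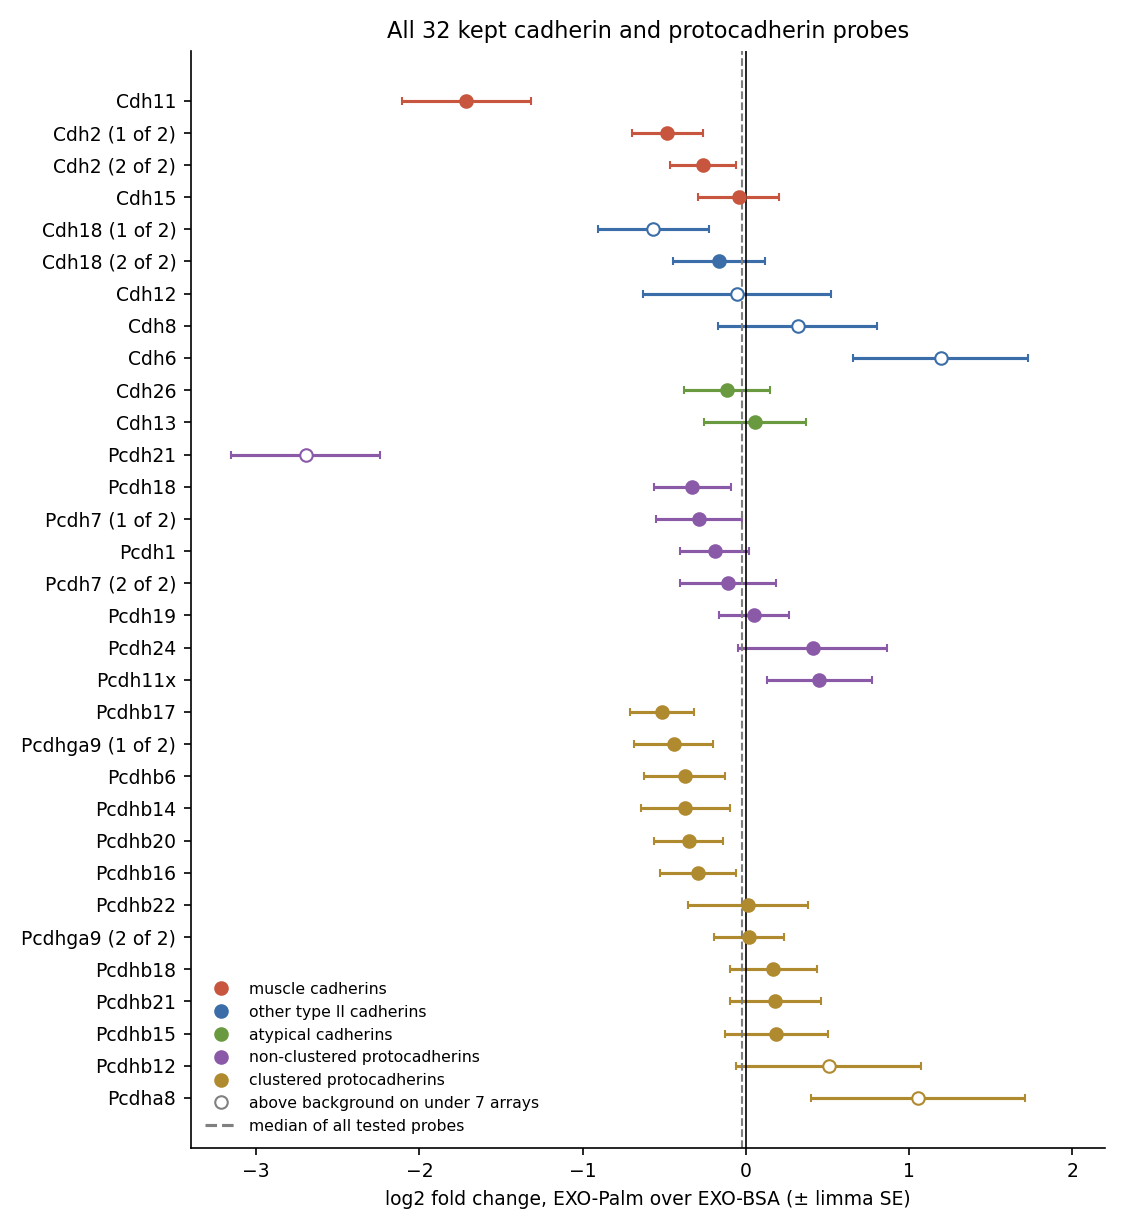
Log2 fold change of EXO-Palm over EXO-BSA for the 32 kept probes, with its limma SE, grouped and coloured by class. Open circles are probes well above background on fewer than 7 arrays, and the dashed line is the median of all tested probes at −0.02. Pcdh21, an open circle, and Cdh11 lie farthest to the left, and Cdh6 and Pcdha8, both open circles, farthest to the right.

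Among the other type II cadherins, which are best known from neurons and developing kidney, the largest difference was that of Cdh6 (K-cadherin). Its probe, printed above, read −5.42, −3.69, −3.65 and −5.68 with EXO-BSA and −3.73, −3.48 and −3.03 with EXO-Palm. EXO-BSA replicates 1 and 4 were far below the others and were the 2 arrays on which it was not well above background. The log2 fold change was 1.20 ± 0.54 (SE, adjusted p = 0.510 in limma), and the groups overlapped. It was 0.35 after normexp and 0.54 on the authors' processed values. Cdh8 read −3.00, −2.26, −2.42 and −4.46 with EXO-BSA and −2.62, −2.84 and −2.68 with EXO-Palm. Its log2 fold change of 0.32 ± 0.49 (SE) became −0.16 without EXO-BSA replicate 4. Cdh12 gave −0.05 ± 0.58 (SE), with EXO-BSA replicate 4 far below the other arrays at −5.68.

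The 2 kept Cdh18 probes lie 537.4 kb apart in mm9 and carry 2 different accessions, 1 of them a predicted transcript. The array names both Cdh18, but the predicted accession was not found among the RefSeq transcripts used here. That probe may therefore not read Cdh18, although it is the brighter and stands for Cdh18 where 1 probe per gene is used. The probe of the predicted transcript read 4.76, 4.90, 4.73 and 5.0 with EXO-BSA and 5.02, 4.01 and 5.02 with EXO-Palm. EXO-Palm replicate 2 stood apart below, and the log2 fold change was −0.16 ± 0.28 (SE). The other probe was well above background on 3 EXO-BSA arrays and 1 EXO-Palm array. It read −4.68, −4.56, −3.57 and −4.64 with EXO-BSA and −4.81, −5.44 and −4.53 with EXO-Palm, a log2 fold change of −0.57 ± 0.34 (SE, adjusted p = 0.625 in limma) that was −0.06 with the slide as a block. The groups overlapped at both probes.

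Of the atypical cadherins, Cdh13 encodes T-cadherin, which is held by a lipid anchor and has no cytoplasmic tail. It read 4.25, 4.44, 4.24 and 5.15 with EXO-BSA and 4.15, 5.07 and 4.52 with EXO-Palm. The highest value of each group lay near 5.1 and the others at 4.52 or below, so the spread within the groups was far larger than the log2 fold change of 0.06 ± 0.31 (SE). The sign turned with the slide as a block (−0.39). Cdh26 read −2.03, −1.15, −1.86 and −2.03 with EXO-BSA and −1.71, −1.92 and −2.02 with EXO-Palm, a log2 fold change of −0.12 ± 0.26 (SE).

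Of the non-clustered protocadherins, Pcdh21, now named Cdhr1 and known from the outer segments of photoreceptors, had the lowest log2 fold change of all members. It read −2.81, −2.25, −1.73 and −2.30 with EXO-BSA. With EXO-Palm it read −4.23 on replicate 1 and −5.72 on replicate 3, and was well above background on 1 of the 3 arrays. The spot on EXO-Palm replicate 2 was marked as faulty by the scanner software and was left out, so the fit used 6 arrays. The measured EXO-Palm values lay below all EXO-BSA values. The log2 fold change was −2.70 ± 0.46 (SE, adjusted p = 0.0631 in limma). The probe was kept through its EXO-BSA arrays alone, and its EXO-Palm replicate 3 value lay below the lowest signal well above background on that array (−4.59). The value is therefore a description of these arrays, with EXO-Palm measured on 2 arrays and well above background on 1 of them. The faulty spot read 1.98, above every other array, and with it the log2 fold change was −0.38 (adjusted p = 0.953 in limma). The result thus turns on that spot. The difference was also smaller after normexp (−1.11) and on the authors' processed values (−1.67).

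The other kept non-clustered protocadherins were Pcdh1, Pcdh7, Pcdh11x, Pcdh18, Pcdh19 and Pcdh24, with log2 fold changes from −0.33 to 0.45. Their groups overlapped at each probe. Pcdh11x read −1.67, −2.30, −2.14 and −2.60 with EXO-BSA and −2.11, −1.09 and −1.98 with EXO-Palm. EXO-Palm replicate 2 was the highest array, and the log2 fold change was 0.45 ± 0.32 (SE, adjusted p = 0.679 in limma) with it and 0.14 without it. The array describes that probe as matching a hypothetical protein, and the second Pcdh11x probe was well above background on 1 array. Pcdh19, which neurons express and which binds N-cadherin, read 1.72, 1.27, 1.79 and 1.42 with EXO-BSA and 1.44, 1.63 and 1.75 with EXO-Palm. The EXO-Palm values lay inside the EXO-BSA range, with a log2 fold change of 0.05 ± 0.22 (SE). The 2 kept Pcdh7 probes, 403.2 kb apart, gave −0.29 and −0.11. Pcdh24, now named Cdhr2 and known from intestinal microvilli, gave 0.41 ± 0.46 (SE).

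All kept clustered protocadherins lie on chromosome 18, as do the Cdh2 and Pcdh1 probes. Detection in the beta cluster, whose 22 genes each had 1 probe, differed along the chromosome. Of Pcdhb1 to Pcdhb11, 1 gene was kept (Pcdhb6), and of Pcdhb12 to Pcdhb22, 9 of 11 were kept (all but Pcdhb13 and Pcdhb19). Counted over arrays, 18 of 77 readings were well above background in the first 11 genes and 62 of 77 in the last 11. The genes that were detected had this in common in both groups of arrays. It is a description of detection, on which the members were chosen, and received no test.

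**Figure D3:**
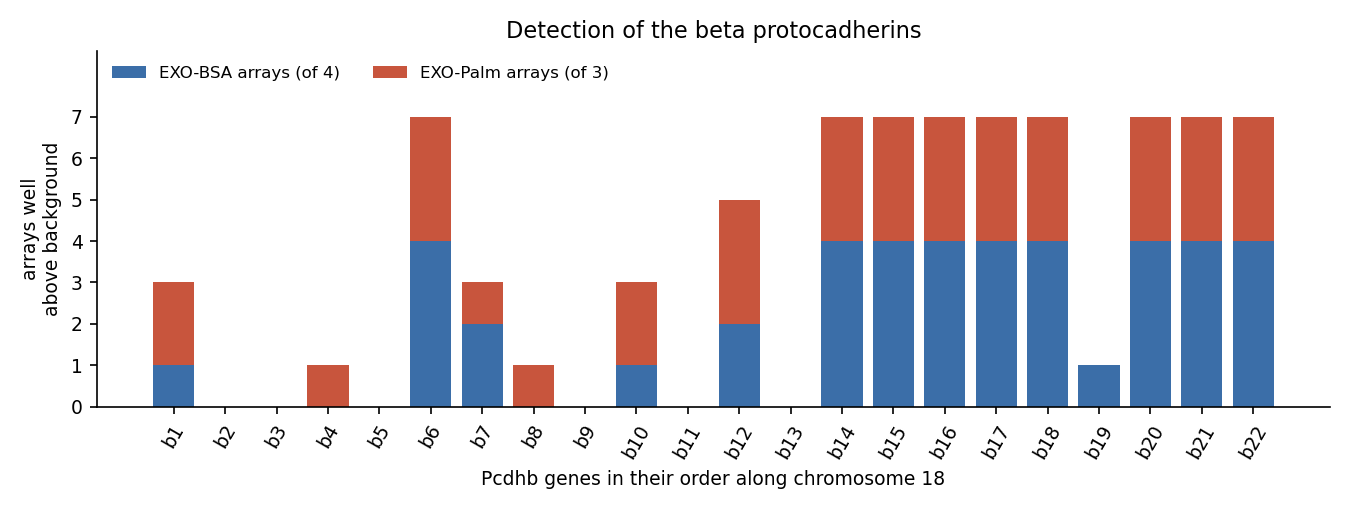
Number of arrays on which each beta protocadherin was well above background, with the 22 genes in their order along chromosome 18 and EXO-BSA and EXO-Palm arrays stacked. Apart from Pcdhb6, the genes above background on all 7 arrays are Pcdhb14 to Pcdhb18 and Pcdhb20 to Pcdhb22.

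Pcdhb17 read 0.11, −0.08, 0.23 and 0.33 with EXO-BSA and −0.30, −0.31 and −0.47 with EXO-Palm. All EXO-Palm arrays lay below all EXO-BSA arrays, and the spread within each group was small. Pcdhb17 thus had a log2 fold change of −0.51 ± 0.20 (SE), with an unadjusted p of 0.0291, an adjusted p of 0.434 in limma and an exact permutation p of 0.0571 (2-sided). It stayed between −0.63 and −0.45 in all 20 alternatives. The other 9 beta genes had log2 fold changes from −0.37 (Pcdhb6 and Pcdhb14) to 0.51 (Pcdhb12), 4 of them negative, and their groups overlapped. The Pcdhb12 value depends on a low signal of −5.64 on EXO-BSA replicate 4. The median of the 10 was −0.14.

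In the alpha cluster 1 of 9 probes was kept, for Pcdha8. It read −3.35, −3.15, −3.32 and −5.87 with EXO-BSA and −2.68, −2.35 and −3.58 with EXO-Palm. EXO-BSA replicate 4 stood 2.5 log2 units below the other three, and it was the only array on which the probe was not well above background. Its log2 fold change was 1.06 ± 0.65 (SE, adjusted p = 0.634 in limma) with that array and 0.41 without it. A second Pcdha8 probe was not well above background on any array.

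In the gamma cluster both kept probes carry the name Pcdhga9. They were the last 2 of the 7 gamma probes along the chromosome, 20.5 and 22.1 kb past the last of the others. By RefSeq, 20 of 22 gamma genes end within 5 bases of their median end point, since gamma transcripts share their last exons, while none of the 22 beta genes overlaps another. These 2 probes may therefore read several gamma genes together, and their values are given for the probes only. The brighter read 4.37, 4.31, 4.56 and 4.33 with EXO-BSA and 4.16, 4.73 and 4.35 with EXO-Palm, a log2 fold change of 0.02 ± 0.21 (SE). The other gave −0.44 ± 0.24 (SE, adjusted p = 0.597 in limma). Of the 5 remaining gamma probes, each was well above background on 3 arrays or fewer.

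Of the 7 kept members not well above background on all 7 arrays, 5 had their lowest value on EXO-BSA replicate 4, and so had 4 of the 25 others. EXO-BSA replicate 4 had the fewest probes well above background of any array. The positive fold changes of Cdh6 (0.84), Pcdha8 (0.41) and Cdh8 (−0.16) were smaller or turned without it. Pcdhb12 and Cdh12 were lowest on it too. Pcdhb12 read −3.03, −3.27, −4.33 and −5.64 with EXO-BSA, beside an EXO-Palm mean of −3.56. Cdh12 read −3.59, −3.62, −2.86 and −5.68 with EXO-BSA, beside an EXO-Palm mean of −3.99. Their log2 fold changes of 0.51 and −0.05 thus depend on that array as well.

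**Figure D4:**
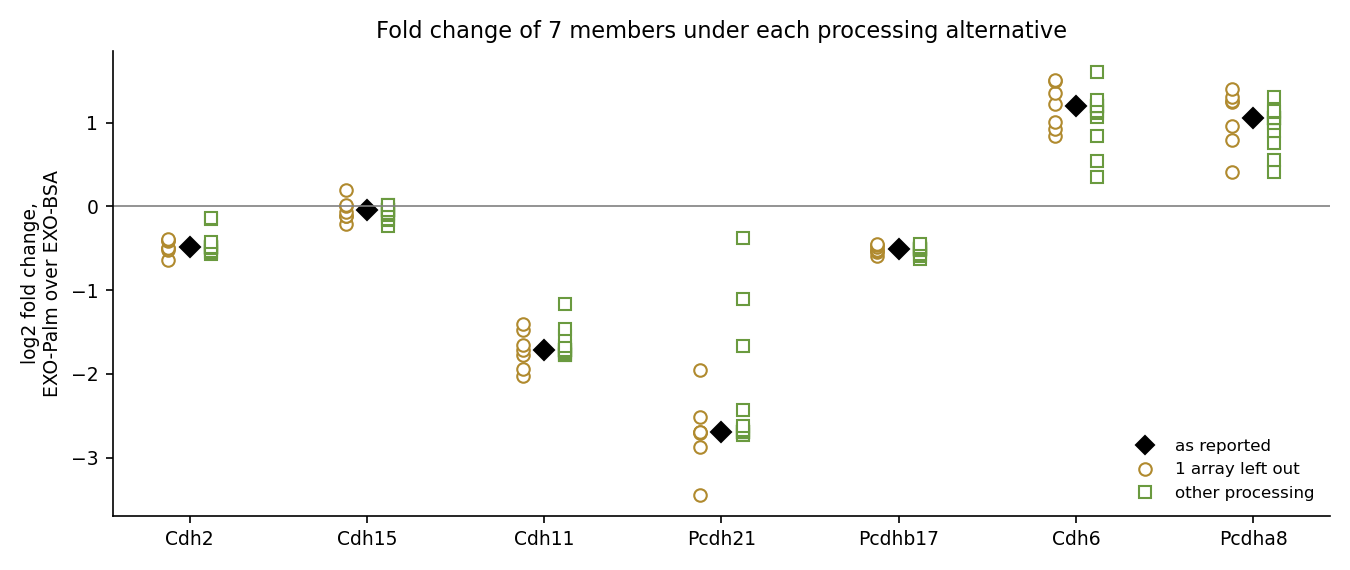
Log2 fold change of EXO-Palm over EXO-BSA for 7 members as reported (diamonds), with 1 array left out (circles) and with other processing (squares). Cdh11 stays between −2.03 and −1.16 and Pcdhb17 between −0.63 and −0.45, Pcdh21 ranges from −3.44 to −0.38, and Cdh15 lies on both sides of 0.

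Genes that work with cadherins were taken as 5 lists with 64 measured genes of 89. None passed an adjusted p of 0.05 in limma. At an unadjusted p under 0.05, 8 were lower and 1 higher with EXO-Palm, 14.1% of the 64 beside 10.0% of all probes. The 8 lower ones were 12.5% of the 64, beside 5.19% of all probes. Cdhr5 is among them and was kept through its EXO-BSA arrays alone, so the filter itself favoured that difference. In the list of catenins and junction adaptors 18 of 22 genes were measured, 11 with a negative value, with a median log2 fold change of −0.09. Ctnna1 (alpha-catenin) gave −0.36, Ctnnb1 (beta-catenin) −0.13 and Ctnnd1 (p120-catenin) −0.42, with adjusted p of 0.597, 0.916 and 0.539 in limma. The largest differences were those of Ctnnal1 (alpha-catulin, −0.60 ± 0.33, SE) and Pvrl2 (nectin-2, 0.59 ± 0.22, SE). The Ctnnal1 value rests on EXO-Palm replicate 2 and was −0.20 without it, and −0.096 with the slide as a block. The mean over 2 Ctnnal1 probes was −0.74. Pvrl2 read −0.01, 0.11, −0.09 and −0.45 with EXO-BSA and 0.50, 0.26 and 0.69 with EXO-Palm, all EXO-Palm arrays being higher, and its mean over 2 probes was 0.25.

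In the list of adhesion and fusion partners of myoblasts, 19 of 21 genes were measured, 16 with a negative value, and the median was −0.20. The largest differences were those of Bai1 (−1.26 ± 0.63, SE), a receptor that promotes myoblast fusion, and Itga9 (−0.81 ± 0.31, SE), an integrin subunit, which was −0.47 without EXO-Palm replicate 3. Bai1 read −5.13, −4.34, −3.73 and −4.21 with EXO-BSA and −3.88, −6.57 and −6.38 with EXO-Palm. EXO-Palm replicate 1 lay inside the EXO-BSA range. The values of EXO-Palm replicates 2 and 3 lay below the lowest signals well above background on those arrays (−4.40 and −4.59), so the size of the Bai1 difference is set by signals near background. Bai1 was thus kept through its EXO-BSA arrays alone, and the filter itself favoured a difference. The difference was 0.86 within slide 1 and −2.16 within slide 3. Cdon, a co-receptor that binds N- and M-cadherin at myoblast contacts, was picked out after its values were seen. It read 4.48, 4.50, 4.54 and 4.67 with EXO-BSA and 3.68, 3.97 and 3.86 with EXO-Palm. All EXO-Palm arrays lay at least 0.5 below all EXO-BSA arrays. The log2 fold change was −0.71 ± 0.19 (SE, adjusted p = 0.217 in limma), it was −0.81 within slide 1 and within slide 3, and the mean over 2 probes was −0.56.

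Of the other cadherin superfamily 8 of 22 genes were measured, with a median of 0.30 and 5 positive values. Cdhr5, a protocadherin of intestinal microvilli listed on the array as Mupcdh, gave −1.30 ± 0.47 (SE) and was −0.60 after normexp. It was well above background on 4 arrays and was kept through its EXO-BSA arrays alone. Fat2, a giant cadherin, gave 0.58 ± 0.38 (SE) and 0.048 after normexp. No desmosomal cadherin (Dsc1 to Dsc3, Dsg1a, Dsg2, Dsg3 and Dsg4) was kept. Among the cadherin repressors 7 of 9 genes were measured, with a median of −0.22. Tcf3 and Tcf4 encode E proteins, which also pair with the myogenic factors, and gave −1.18 ± 0.51 and −0.55 ± 0.23 (SE). The mean over 2 probes was −0.43 for Tcf3, whose other probe went the other way, and −0.38 for Tcf4. Tcf3 read 0.84, 1.18, 1.07 and 0.95 with EXO-BSA and 0.67, 0.46 and −1.65 with EXO-Palm, and was −0.45 without EXO-Palm replicate 3, and Tcf4 was then −0.35. Of the shedding and processing enzymes 12 of 15 were measured, 7 with a negative value, and the median was −0.37. Aph1a, a subunit of gamma-secretase, read 1.39, 1.61, 1.94 and 1.32 with EXO-BSA and 0.85, 0.35 and 0.84 with EXO-Palm. All EXO-Palm arrays were lower, with a log2 fold change of −0.88 ± 0.24 (SE, adjusted p = 0.229 in limma). It was −0.57 with the slide as a block, and the mean over 2 probes was −0.50. Pcsk6, a convertase that cleaves proproteins, gave −0.68 ± 0.36 (SE). With the slide as a block the medians of these 5 lists, in the order given, were −0.17, −0.32, 0.22, −0.09 and −0.23. Fold changes are of the brightest kept probe of each gene.

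**Figure D5:**
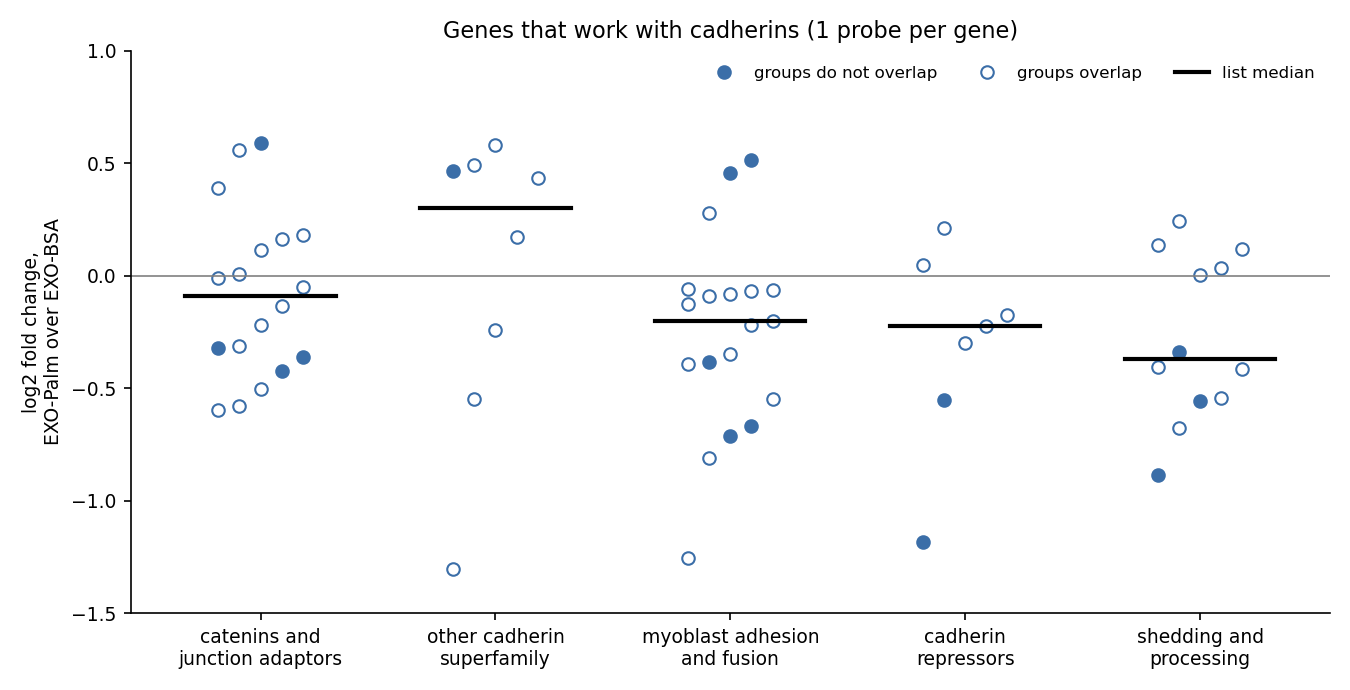
Log2 fold change of EXO-Palm over EXO-BSA for each measured gene in the 5 lists (1 probe per gene). Filled circles are genes whose 2 groups of arrays do not overlap, and the bars are list medians, which run from −0.37 for shedding and processing enzymes to 0.30 for the other cadherin superfamily.

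Markers of other cells were set beside these results. The summed level of the 4 measured neuronal and glial markers (of 8) was 6.34 to 13.1 on EXO-BSA arrays and 2.70 to 3.70 on EXO-Palm arrays, in units of the array's 75th percentile. It did not overlap between groups, as with Cdh11, and came mostly from Snap25 (log2 fold change −1.61, adjusted p = 0.0802 in limma). The defining markers Syt1, Gfap and Mbp were not kept. The summed level of the 3 measured macrophage markers (of 5) was 1.70 to 2.16 with EXO-BSA and 2.44 to 3.97 with EXO-Palm, with Ptprc and Cd68 not kept. These ranges did not overlap either. All 3 had a positive log2 fold change, and Cd14 (1.05, adjusted p = 0.219 in limma) was higher on all EXO-Palm arrays. The summed levels of the 12 muscle markers overlapped (647.8 to 780.2 and 517.4 to 664.7), as did those of the 4 measured fibroblast and adipocyte markers of 6 (27.9 to 80.6 and 53.7 to 61.5) and of the 4 measured myoblast markers of 5 (6.30 to 9.14 and 6.68 to 8.72). Of the 12 muscle markers, 9 had a negative log2 fold change and 3 a positive one. Their groups did not overlap for 4, with Myh3, Myh8 and Myom1 lower and Des higher on all EXO-Palm arrays. Among all tested probes, 11.3% did not overlap in either direction and 5.87% were lower on all EXO-Palm arrays. The single markers named here as higher or lower on all EXO-Palm arrays are to be read beside these shares. All 4 measured fibroblast and adipocyte markers had a positive log2 fold change, with a median of 0.51, and the sum came mostly from Dcn (decorin). Lum (lumican, a proteoglycan of connective tissue) was higher on all EXO-Palm arrays, with a log2 fold change of 1.45 ± 0.30 (SE, adjusted p = 0.105 in limma). The 2 measured endothelial markers of 5 overlapped too (4.12 to 5.25 and 3.04 to 6.17). The 3 measured epithelial markers of 5 summed to 0.681 to 0.938 and 0.514 to 0.609, which did not overlap. Krt19 was lower on all EXO-Palm arrays (log2 fold change −0.76, adjusted p = 0.323 in limma), and 1 of the 3 had a positive value. None of these markers passed an adjusted p of 0.05, and their part in the values of the cadherins was not tested.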

How the data were processed

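RNA (0.1 ug) was labelled with Cy3 and hybridised to 1-colour Agilent arrays. The authors deposited the scanner software's output per array, whose processed signal is an intensity with background removed and the arrays not yet made alike. They also deposited a value table on the log2 scale. Headers name version 11.5.1.1 for EXO-BSA replicate 3 and 10.7.3.1 for the others, and the labels 9.1. The table's rows were joined to spots by order.

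Log2 of the processed signal minus each array's 75th percentile over 43020 non-control spots was used. Control and faulty spots were left out and the 399 probes printed 10 times were averaged. The 32 member probes were rows of a limma 3.58.1 fit (R 4.3.3) on group over 21589 probes (prior df 3.67, Benjamini-Hochberg, threshold 0.05), tested on simulated data. The software of 1 array gave no mean spot signal, so normexp used median signals (offset 50). Exact permutation tests ran in scipy. Of 73 member names, 70 are current RefSeq symbols (GRCm38.p6) and 3 older names.

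Named were the kept probes of Cdh2, Cdh11 and Cdh15, members with an unadjusted p under 0.05, the 2 largest differences and the brightest gene of each other class, and the 2 largest of each list. Members and lists were chosen with earlier results of these data known. Deviations from the group means had correlations of 0.12, −0.15 and −0.15 between same-numbered replicates. Between arrays of both groups on the same slide they were 0.12, 0.31 and 0.18, the first being the same pair. Groups of 3 and 4 arrays are too few to exclude a pairing by number, and the main fit used none.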

Additional observations from a re-analysis of the deposited data

Results flagged for a closer look

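In 3 of 28 groups of 4 EXO-BSA arrays examined, 1 array stood apart by Dixon's test at its 95% critical value, which chance alone gives in about 1 of 20 groups. The Pcdha8 probe read −5.87 on EXO-BSA replicate 4, where the others lay between −3.35 and −3.15. The log2 fold change without that array was 0.41. The less bright Cdh18 probe read −3.57 on EXO-BSA replicate 3, where the others lay between −4.68 and −4.56, and its log2 fold change without it was −0.30. Tcf4 read 3.42 on EXO-BSA replicate 4, where the others lay between 3.21 and 3.24, and its log2 fold change without it was −0.51. The groups of 3 EXO-Palm arrays were too small for this test.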

How the results depend on the processing

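The count of all probes called, 115, was 0 without the filter on dim probes and by the methods' t-test after adjustment, 181 with the slide as a random block, 173 with trended and robust variances, and 0 to 202 with 1 array left out. The lowest was without EXO-BSA replicate 1 and the highest without EXO-Palm replicate 2. The replicate block also gave 0 calls, and no member. At an unadjusted p under 0.05 limma gave 2169 probes and the t-test 2107. Member probes called, 0 as reported, were 1 (Pcdh21) under quantile normalisation, the random slide block, trended variances and array weights, 2 (Cdh11 and Pcdh21) under median centring and 0 to 1 with 1 array left out. At an unadjusted p they were 3 in limma and 4 by the t-test (with Cdh2). Cdh11 was −1.77 under median centring, past the threshold there.

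The gap between muscle cadherins and the others was −0.11 after normexp, −0.13 on the authors' processed values and −0.32 with all probes averaged. Cdh15 turned to 0.021 under quantile normalisation and 0.013 with the replicate block, and ranged from −0.20 to 0.19 with 1 array left out. Small values of other genes turned too. Cdh13 was −0.0033 under median centring, −0.39 and −0.037 with the slide as a fixed and a random block, and −0.19 to 0.27 with 1 array left out. Cdh18 was 0.12 with the slide block and −0.34 to 0.17 with 1 array left out, and Cdh26 −0.20 to 0.088. Cdh8 was −0.083 after normexp, −0.064 on the authors' values, −0.16 with the replicate block and −0.16 to 0.58 with 1 array left out. Pcdh19 was −0.0074, −0.18 and −0.18 under median centring, normexp and the authors' values, and −0.042 to 0.13 with 1 array left out. Pcdhga9 was −0.040, −0.11 and −0.098 under these, −0.097 and −0.0058 with the slide blocks, −2.17e-05 with the replicate block, −0.038 with array weights and −0.14 to 0.15 with 1 array left out. The cause was not tested. The median of the member probes moved by less than the SD over the 3 EXO-Palm arrays, and the 5 lists had 0 calls also with the slide block and under quantile normalisation, the alternatives run for them. With 3 and 4 arrays and dim probes, small differences were not detectable.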
